A study of Mus musculus with 18 samples.

Results

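The genes described here are 35 mouse genes that charge tRNAs with amino acids or belong to the amino acid response driven by the transcription factor ATF4. They were chosen by symbol, and all 35 were found among the 16474 genes of the deposited table. A total of 20 encode cytosolic aminoacyl-tRNA synthetases, which join each amino acid to its tRNA before translation. The other 15 encode transcription factors, enzymes, transporters and regulators of the amino acid response. All 35 were among the 15627 genes tested.

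In this response, a shortage of amino acids, misfolded protein or viral RNA activates kinases that phosphorylate the translation factor eIF2. Translation then falls in general, while ATF4 mRNA is translated better. ATF4 protein raises genes for amino acid synthesis, amino acid transport and many tRNA synthetases. A subset of synthetases sits with scaffold proteins in a multisynthetase complex.

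RNA came from macrophages that had been grown from bone marrow of 8-week-old C57BL/6 mice and were either p110g-/- or wild type (WT). The genotype label names p110gamma, a catalytic subunit of class I phosphoinositide 3-kinase that Pik3cg encodes. Marrow cells matured for 6 days with 50 ng/ml of M-CSF, which drives macrophage growth. The 6 groups, each with 3 libraries numbered 1 to 3, were p110g-/- IFNg/LPS, WT IFNg/LPS, p110g-/- IL-4, WT IL-4, p110g-/- M-CSF and WT M-CSF. IFNg/LPS cells had interferon gamma and 100 ng/ml lipopolysaccharide for 24 h, IL-4 cells had 20 ng/ml interleukin 4 for 48 h, and M-CSF cells had no further agent for 24 h. All groups kept 20 ng/ml M-CSF throughout, so the IL-4 and M-CSF groups differ in time as well as in stimulus, and the effects of the 2 cannot be told apart. Whether the libraries of each group are separate animals or separate cultures is not stated in the labels, so p-values measure the spread between these libraries, which may be technical. In such bulk RNA, fewer cells of a type and less RNA per cell cannot be told apart.

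Values below are normalised signal, the read count of a gene scaled by its library's factor. Read counts recovered from these values summed, over the genes of the deposited table, to 40081565 to 69602665 per library. A count of 0 allows an expected 3 reads, a signal of 2.15 to 4.74, for counting error only. Fold changes are differences of means of log2(signal + 1), with the standard error of the limma model. A gene is called higher or lower, or is said to have risen or fallen, at a limma p-value of at most 0.05 after Benjamini-Hochberg adjustment over all genes tested. Members were not compared by level with each other, because the signal is not per length.

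The targeted gene was checked first. Pik3cg had 1888 to 2046 in p110g-/- M-CSF against 4994 to 5330.3 in WT M-CSF, and 956 to 1083 in p110g-/- IL-4 against 2953 to 3281 in WT IL-4. In IFNg/LPS it had 3691, 1411 and 2037 in p110g-/- libraries 1, 2 and 3, against 3559.5, 2309 and 2604 in WT libraries. The library labelled p110g-/- IFNg/LPS, number 1, therefore stood above all 3 WT libraries of that stimulus and went against its label by this gene. H60a, a gene chosen after its values were seen, was at 2546 in that library. It had 2576 and 2937 in the other p110g-/- IFNg/LPS libraries and 133 to 145 in WT IFNg/LPS. H60a differed likewise in M-CSF, with 3214 to 3752 in p110g-/- against 61.7 to 63.8 in WT libraries. In IL-4 it had 3743 to 4317 in p110g-/- against 78.0 to 101.9 in WT libraries. Whether the p110g-/- and WT mice also differ in other parts of the genome was not tested. Loss of p110g and such a difference cannot be told apart in any genotype comparison below. Calls of the members, and their counts, that rest on the library labelled p110g-/- IFNg/LPS, number 1, are given with and without it.

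Over the 9 of 10 macrophage markers in the table, signal summed to 595059 to 695041 in p110g-/- IFNg/LPS, 652225 to 713229 in WT IFNg/LPS, 450921 to 554355 in the IL-4 groups and 886342 to 1049267 in the M-CSF groups. The lysozyme gene Lyz2 made up much of these sums, with a mean of 234998 in p110g-/- IFNg/LPS, 294448 in WT IFNg/LPS, 617749 in p110g-/- M-CSF and 584061 in WT M-CSF. Marker by marker, 4 rose and 3 fell under IFNg/LPS in each genotype (median log2 fold change 0.41 in p110g-/- and 0.35 in WT cells), and under IL-4 7 fell in p110g-/- and 8 in WT cells (medians -0.98 and -1.16). In p110g-/- cells 5 rose and 4 fell under IFNg/LPS without the library labelled p110g-/- IFNg/LPS, number 1.

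Markers of other cells were present too. The 8 neutrophil markers summed to 1041 to 1915 in p110g-/- IFNg/LPS, 2131 to 3278 in WT IFNg/LPS, and Elane was at 0 in all libraries of the IFNg/LPS groups. They reached 9243 in p110g-/- IL-4, 21727 in WT IL-4, 26146 in p110g-/- M-CSF and 32170 in WT M-CSF. In M-CSF and in IL-4, the highest of these sums was that of library 1 in both genotypes. The 4 measured osteoclast markers, some of which macrophages also express, summed to 4646 to 8936 in IFNg/LPS, 96050 to 114497 in IL-4 and 28970 to 78706 in M-CSF. Under IFNg/LPS 2 of the 4 rose and 2 fell in p110g-/- cells, and 2 rose and 1 fell in WT cells, while under IL-4 3 rose in each genotype. Without the library labelled p110g-/- IFNg/LPS, number 1, 2 of these markers rose and 1 fell under IFNg/LPS in p110g-/- cells. The median log2 difference of the 6 fibroblast markers, p110g-/- minus WT, was 0.75 in IFNg/LPS, 1.19 in IL-4 and 1.51 in M-CSF, and 1 was called higher, in M-CSF. Their sums were 298 to 520 in p110g-/- IFNg/LPS against 259 to 314 in WT IFNg/LPS, 743 to 1370 in p110g-/- IL-4 against 211 to 1049 in WT IL-4, and 1577 to 3556 in p110g-/- M-CSF against 371 to 2422 in WT M-CSF. Of the 3 measured mast cell and basophil markers, 2 were called lower in p110g-/- cells in IL-4 and 1 in IFNg/LPS. Their sums were 60.7 to 187 in p110g-/- IFNg/LPS against 39.2 to 57.6 in WT IFNg/LPS, 64.1 to 84.6 in p110g-/- IL-4 against 131 to 260 in WT IL-4, and 69.9 to 184 in p110g-/- M-CSF against 149 to 226 in WT M-CSF. The 5 dendritic cell markers summed to 646 to 1060 in IFNg/LPS, 164 to 276 in IL-4 and 175 to 255 in M-CSF. Measured markers of B cells (5 of 6), T and NK cells (3 of 6) and erythroid cells (1 of 4) summed to 628 or less in every library. The part of these cell types in the results below was not tested.

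ATF4 binds DNA at the C/EBP-ATF response element, and a search of promoters was made to show where its letters lie beside these genes. RefSeq promoters of build GRCm38.p6, from 250 bases before to 50 after a gene's start, were matched for 26 of the 35 members. The letters TGATGNAAN, on either strand, were found in 9 of these 26, namely Iars, Aars, Gars, Tars, Yars, Atf3, Asns, Trib3 and Chac1, against 3.95% of all 32851 promoters. The E-box CACGTG, which reads the same on both strands, was in 4 (Aars, Farsb, Iars and Tars) against 7.15%, the STAT site TTCNNNGAA in 3 (Aars, Kars and Shmt2) against 8.3%, and the interferon-stimulated response element in 2 (Qars and Ppp1r15a) against 3.44%. A match is a run of letters, not a shown binding site. Capitals mark the matches in the stretches below, printed 5′ to 3′ on the gene's strand for members whose responses are described with every library, and for Asns, Atf3 and Chac1, which were picked after the matches were seen. The stretch of Trib3 lies just after the start of transcription, that of the Iars response element across it, and the others upstream. They lie at chr2:152344028-152344057 minus strand (Trib3), chr8:111033666-111033792 plus (Aars), chr13:49682126-49682155 and chr13:49682031-49682096 plus (Iars), chr6:7693210-7693262 minus (Asns), chr1:191183406-191183474 minus (Atf3), chr2:119351018-119351086 plus (Chac1), chr1:78488901-78488966 minus (Farsb) and chr10:127522461-127522529 minus (Shmt2).
Trib3, response element: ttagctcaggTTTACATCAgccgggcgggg
Aars, E-box, response element and STAT site: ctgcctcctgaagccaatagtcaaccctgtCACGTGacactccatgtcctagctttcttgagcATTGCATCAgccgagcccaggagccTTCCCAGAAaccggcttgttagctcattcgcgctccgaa
Iars, E-box: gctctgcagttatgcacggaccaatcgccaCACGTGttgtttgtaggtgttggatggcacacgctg
Iars, response element: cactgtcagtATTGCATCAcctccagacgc
Asns, response element: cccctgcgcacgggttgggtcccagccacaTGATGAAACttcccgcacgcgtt
Atf3, response element: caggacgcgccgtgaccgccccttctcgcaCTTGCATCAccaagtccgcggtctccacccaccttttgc
Chac1, response element: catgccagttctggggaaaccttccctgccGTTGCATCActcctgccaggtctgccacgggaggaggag
Farsb, E-box: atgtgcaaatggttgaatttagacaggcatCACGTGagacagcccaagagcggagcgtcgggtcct
Shmt2, STAT site: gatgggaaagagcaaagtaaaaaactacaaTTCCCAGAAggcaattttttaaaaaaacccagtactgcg

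**Figure D1:**
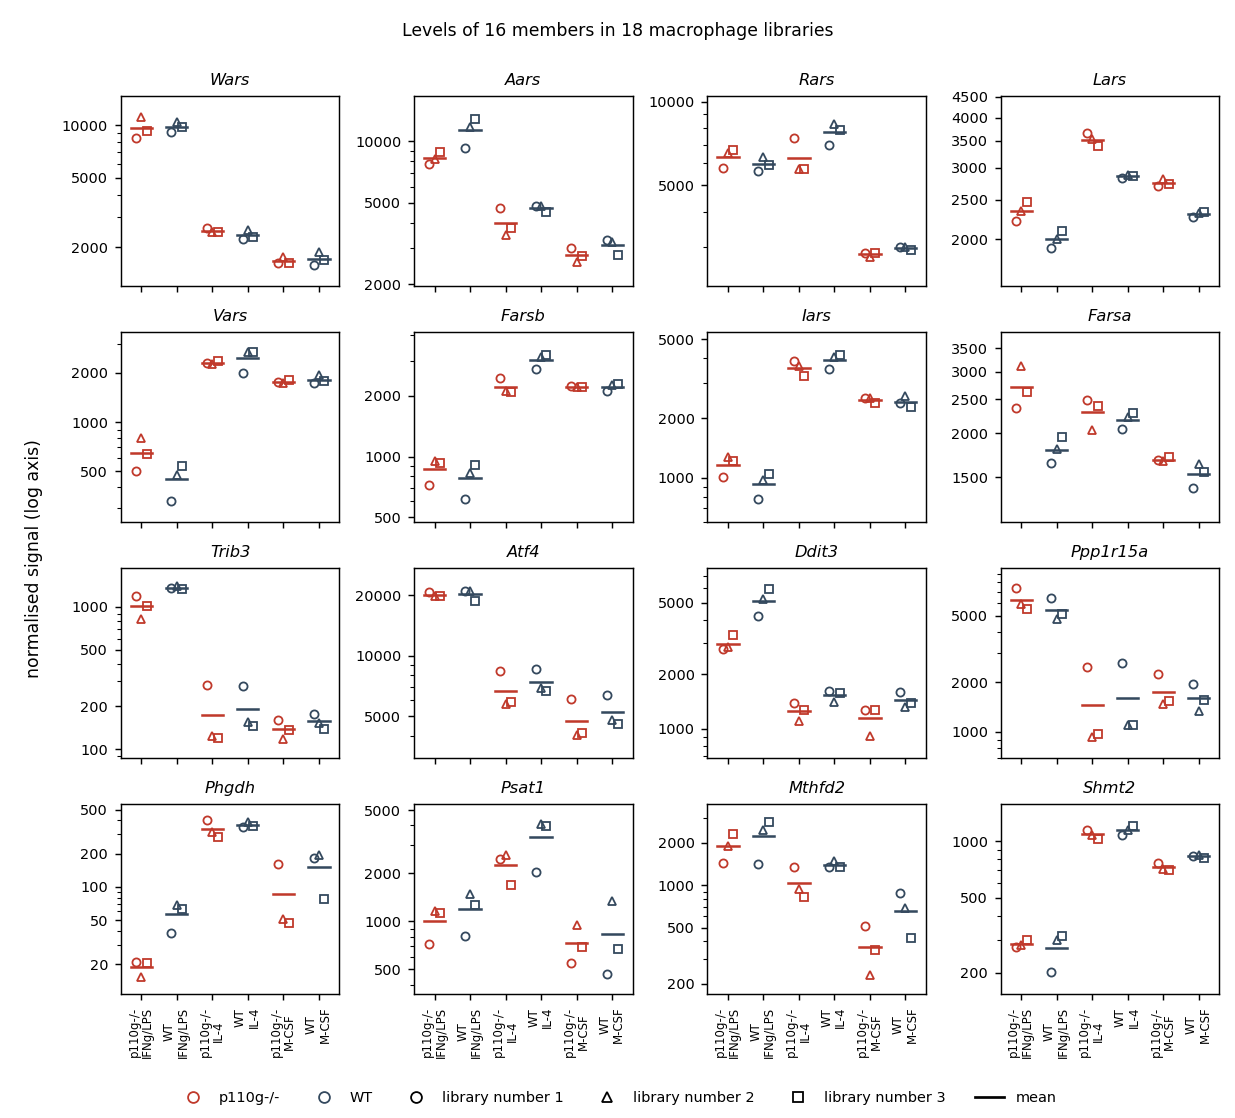
Normalised signal (log axis) of 16 members in the 18 libraries, by genotype and stimulus, with a symbol for each library number and a line at the group mean. Wars, Aars, Trib3, Atf4 and Ddit3 were high in IFNg/LPS, Vars, Farsb, Iars, Phgdh and Shmt2 were low there, and Lars stood higher in p110g-/- than in WT libraries under each stimulus.

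Under IFNg/LPS the synthetases moved in both directions, with a called share near that of all genes, and most of the ATF4 response rose. In p110g-/- cells 16 members rose and 9 fell, against 36.2% of all genes called higher and 36.8% called lower. In WT cells 18 rose and 9 fell, against 36.3% and 37.5%. The members called in either direction were 71.4% in p110g-/- and 77.1% in WT cells, near the 73.0% and 73.8% of all genes, so the number of calls is no result about the members. The 16 and the 9 called in p110g-/- cells were also called, in the same direction, in WT cells, where Sars and Slc7a5 were called in addition. The median log2 fold change over the 35 members was 0.46 in p110g-/- cells and 0.55 in WT cells, against -0.01 over all genes in each. Both responses are read against M-CSF libraries that also serve the IL-4 comparison of the same genotype. Without the library labelled p110g-/- IFNg/LPS, number 1, the 25 calls in p110g-/- cells were kept and Sars was added, which gives 17 higher and 9 lower, against 69.7% of all genes in either direction, and a median of 0.56. The 7 handling stress genes summed to 26467 to 37297 in p110g-/- IFNg/LPS against 8721 to 13675 in p110g-/- M-CSF, and to 47370 to 53032 in WT IFNg/LPS against 12650 to 15915 in WT M-CSF. Dusp1 averaged 18537 against 2726 in p110g-/- and 28800 against 3120 in WT cells. The heat shock gene Hspa1a averaged 3845 against 116, and 6776 against 101. Means of Fos and Jun were lower in IFNg/LPS. Fos had 2347 against 3305 in p110g-/- and 3231 against 5380 in WT cells, and Jun 3655 against 5238, and 4960 against 5598. Of the 7 genes, 3 rose and 1 fell in p110g-/- cells and 3 rose in WT cells. Without the library labelled p110g-/- IFNg/LPS, number 1, 3 rose and 2 fell in p110g-/- cells. The part of these genes in the response of the members was not tested.

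Among the 20 synthetases, 7 rose and 7 fell in p110g-/- cells, and 8 rose and 7 fell in WT cells. The called shares were 70% in p110g-/- and 75% in WT cells, near the 73.0% and 73.8% of all genes. Their median log2 fold changes were -0.01 and -0.07, against -0.01 over all genes in each. These counts are therefore no result about the synthetases, and single genes are described below. The largest rise was that of Wars, which charges tryptophan and is a known target of interferon gamma. Wars had 8406, 11147 and 9228 in p110g-/- IFNg/LPS libraries 1, 2 and 3, against 1627, 1758 and 1628 in p110g-/- M-CSF libraries. In WT cells it had 9140.0, 10400.4 and 9705 in IFNg/LPS, against 1594, 1878 and 1704 in M-CSF. Every stimulated library stood above every M-CSF library, and the log2 fold change was 2.51 ± 0.09 in p110g-/- (limma adjusted p = 2.2e-12) and 2.50 ± 0.09 in WT cells (limma adjusted p = 2.5e-12). Aars, which charges alanine, had 7748, 8188 and 8897 in p110g-/- IFNg/LPS, against 3024, 2555 and 2755 in p110g-/- M-CSF. Its WT values were 9266, 11787 and 12881 in IFNg/LPS, against 3275, 3234 and 2781 in M-CSF. The groups did not overlap in either genotype, and the rise was 1.58 ± 0.12 in p110g-/- and 1.86 ± 0.12 in WT cells on the log2 scale (limma adjusted p = 1.2e-08 and 1.7e-09). Rars for arginine, Cars for cysteine, Kars for lysine, Gars for glycine and Farsa, a subunit of the phenylalanine enzyme, made up the other risers common to both genotypes, with log2 fold changes of 0.48 (Gars) to 1.17 (Rars) in p110g-/- and 0.23 (Farsa) to 1.08 (Cars) in WT cells. The calls of Farsa and Sars in WT cells (log2 0.23 and 0.24, limma adjusted p = 0.047 and 0.031) were lost under 8 and 5 of 16 alternative analyses. Farsa lost its call without WT M-CSF library 1 or 3 or WT IFNg/LPS library 2 or 3, and Sars without M-CSF library 2 or 3 or the same IFNg/LPS libraries.

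The synthetases that fell most were Vars, Farsb and Iars. Vars, which charges valine, had 505, 796 and 634 in p110g-/- IFNg/LPS against 1761, 1726 and 1815 in p110g-/- M-CSF, and 328, 473 and 537 in WT IFNg/LPS against 1725, 1941 and 1787 in WT M-CSF. Farsb, the beta subunit of the phenylalanine enzyme, had 721, 949 and 931 in p110g-/- IFNg/LPS against 2244, 2215 and 2222 in p110g-/- M-CSF, and 617, 829 and 913 in WT IFNg/LPS against 2123, 2263 and 2298 in WT M-CSF. Iars, which charges isoleucine and carries both an E-box and the response element printed above, had 1011, 1272 and 1209 in p110g-/- IFNg/LPS against 2522, 2515 and 2375 in p110g-/- M-CSF, and 781, 977 and 1044 in WT IFNg/LPS against 2378, 2572 and 2279 in WT M-CSF. Every stimulated library of these 3 genes lay below every M-CSF library of its genotype. The log2 fold changes in p110g-/- and WT cells were -1.48 ± 0.17 and -2.05 ± 0.17 for Vars, -1.37 ± 0.13 and -1.52 ± 0.13 for Farsb, and -1.09 ± 0.11 and -1.38 ± 0.11 for Iars. All had a limma adjusted p of 1.1e-06 (Vars in p110g-/- cells) or less. Qars (glutamine), Dars (aspartate), Nars (asparagine) and Lars (leucine) also fell in both genotypes. The Lars fall in WT cells, -0.21 on the log2 scale (limma adjusted p = 0.0021), was lost with libraries centred on their medians (-0.09, limma adjusted p = 0.11), a scaling that moved the median of all genes in this comparison by 0.119. The same scaling moved that median by 0.072 or less in every other comparison.

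The calls of the phenylalanine enzyme's subunits thus had opposite directions in both genotypes. In WT cells the rise of Farsa was small, with means of 1800 in IFNg/LPS against 1531 in M-CSF, beside 786 against 2228 for Farsb. This Farsa call was lost with edgeR and with only the compared groups in the fit, among other alternatives. The ratio of Farsa to Farsb signal, a quantity chosen after the values were seen, was 3.28, 3.29 and 2.83 in p110g-/- IFNg/LPS against 0.747, 0.752 and 0.772 in p110g-/- M-CSF. It was 2.67, 2.17 and 2.14 in WT IFNg/LPS against 0.66, 0.726 and 0.675 in WT M-CSF. Only the change of this ratio between groups can be read, since neither signal is per length.

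**Figure D2:**
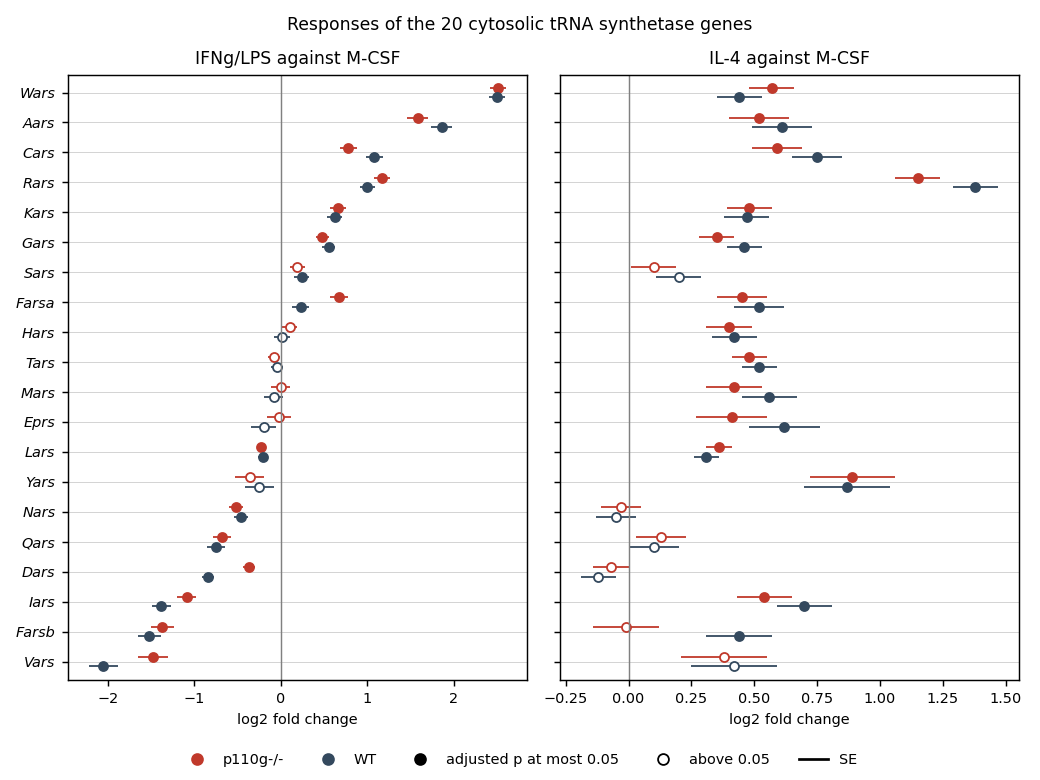
Log2 fold change and standard error of the 20 synthetase genes under IFNg/LPS (left) and IL-4 (right), each against M-CSF, in p110g-/- (red, upper point) and WT cells (dark, lower point), with filled points for a limma adjusted p of at most 0.05. Under IFNg/LPS the genes spread from -2.05 (Vars) to 2.51 (Wars), and under IL-4 all filled points lie above 0.

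Of the 15 genes of the ATF4 response, 9 rose and 2 fell in p110g-/- cells, and 10 rose and 2 fell in WT cells. The called shares were 73.3% in p110g-/- and 80% in WT cells, near the 73.0% and 73.8% of all genes. The number of calls is therefore no result about these genes. Of all genes, 36.2% in p110g-/- and 36.3% in WT cells were called higher. Median log2 fold changes of the 15 genes were 1.25 and 1.36, against -0.01 over all genes in each. Trib3, a pseudokinase that holds back ATF4 in a feedback loop, had 1197, 824 and 1013 in p110g-/- IFNg/LPS against 161, 118 and 137 in p110g-/- M-CSF. Its WT values were 1351, 1394 and 1349 in IFNg/LPS and 178, 153 and 139 in M-CSF. Atf4 had 20617, 19813 and 19859.9 in p110g-/- IFNg/LPS against 6095, 4045 and 4113 in p110g-/- M-CSF, and 20833, 21004 and 18744 in WT IFNg/LPS against 6374, 4787 and 4589 in WT M-CSF. No stimulated library of either gene overlapped an M-CSF library of its genotype. Trib3 rose by 2.85 ± 0.29 in p110g-/- and 3.12 ± 0.29 in WT cells on the log2 scale (limma adjusted p = 2.2e-07 and 7.7e-08), and Atf4 by 2.11 ± 0.17 and 1.96 ± 0.17 (limma adjusted p = 2e-08 and 4.8e-08). The other transcription factors rose too. Atf3, a related factor that restrains inflammatory genes in macrophages, rose by 1.25 in p110g-/- and 1.26 in WT cells. Ddit3, which encodes CHOP, a factor of the stress response, rose by 1.38 and 1.83.

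Ppp1r15a, which directs a phosphatase to eIF2, and Eif4ebp1, which binds the cap-binding factor eIF4E, rose in both genotypes. Ppp1r15a had log2 fold changes of 1.85 in p110g-/- and 1.76 in WT cells, and Eif4ebp1 1.71 and 1.45. Slc3a2, the heavy chain of the large neutral amino acid transporter, rose by 1.08 in p110g-/- and 1.36 in WT cells. Its light chain Slc7a5 had 0.46 in p110g-/- (limma adjusted p = 0.092) and rose by 0.78 in WT cells (limma adjusted p = 0.0077), a call that was lost without WT M-CSF library 3 (limma adjusted p = 0.052). Chac1, a glutathione-degrading enzyme, had 27.9, 30.4 and 51.6 in p110g-/- IFNg/LPS against 24.1, 3.3 and 6.7 in p110g-/- M-CSF, and 36.9, 79.4 and 69.5 in WT IFNg/LPS against 36.1, 8.7 and 8.7 in WT M-CSF. Its lowest M-CSF values lie near the signal that a count of 0 allows, and its groups did not overlap. Chac1 was not called (limma adjusted p = 0.072 in p110g-/- and 0.067 in WT cells), but with the library number as a block the limma adjusted p was 0.037 in WT cells.

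The enzymes of serine and one-carbon metabolism divided. Mthfd2, a mitochondrial folate enzyme, had 1439, 1904 and 2309 in p110g-/- IFNg/LPS against 513, 231 and 346 in p110g-/- M-CSF, and 1407, 2455 and 2783 in WT IFNg/LPS against 873, 689 and 422 in WT M-CSF. Shmt2, the mitochondrial serine hydroxymethyltransferase, had 275, 281 and 297 in p110g-/- IFNg/LPS against 766, 709 and 704 in p110g-/- M-CSF, and 202, 299 and 313 in WT IFNg/LPS against 839, 850.1 and 814 in WT M-CSF. Phgdh, the first enzyme of serine synthesis, had 20.9, 15.2 and 20.5 in p110g-/- IFNg/LPS against 161, 51.4 and 47.5 in p110g-/- M-CSF, and 38.4, 69.1 and 63.2 in WT IFNg/LPS against 181, 193 and 76.9 in WT M-CSF. Mthfd2 was thus higher and Shmt2 and Phgdh were lower in every stimulated library than in any M-CSF library of the same genotype. Mthfd2 rose by 2.42 ± 0.32 in p110g-/- and 1.75 ± 0.32 in WT cells (limma adjusted p = 4.8e-06 and 0.00014). Shmt2 changed by -1.35 ± 0.12 and -1.64 ± 0.12 (limma adjusted p = 6.4e-08 and 6.5e-09). Phgdh changed by -1.92 ± 0.41 and -1.32 ± 0.41 (limma adjusted p = 0.00055 and 0.0086). The later enzymes of the serine route were not called, with log2 fold changes of 0.46 in p110g-/- and 0.61 in WT cells for Psat1, and 0.00 and 0.16 for Psph. With the library number as a block, Psat1 was called higher in WT cells (limma adjusted p = 0.029). Asns, which makes asparagine, rose by 0.92 and 1.01 (limma adjusted p = 0.025 and 0.016), with groups that overlapped in both genotypes. The Asns call was lost without p110g-/- M-CSF library 2 or 3 or IFNg/LPS library 3, and in WT cells without M-CSF library 3 or IFNg/LPS library 2 or 3.

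Without the library labelled p110g-/- IFNg/LPS, number 1, the log2 fold changes in p110g-/- cells were 2.60 for Wars, 1.62 for Aars, 2.72 for Trib3, 2.09 for Atf4 and 2.60 for Mthfd2. They were -1.31 for Vars, -1.24 for Farsb, -0.99 for Iars, -1.33 for Shmt2 and -1.99 for Phgdh. Rars was at 1.23, Cars at 0.85, Kars at 0.75, Gars at 0.46 and Farsa at 0.76. Atf3 was at 1.25, Ddit3 at 1.43, Ppp1r15a at 1.73, Eif4ebp1 at 1.55, Slc3a2 at 1.10 and Asns at 1.19. All of these kept their call and the direction given above, and Slc7a5, Chac1, Psat1 and Psph were again not called. With all libraries, among the 9 members with the response element, 5 rose and 1, Iars, fell in each genotype. Among the 17 without it, 7 rose and 5 fell in p110g-/- cells and 8 rose and 5 fell in WT cells. Over all genes, 36.2% in p110g-/- and 36.3% in WT cells were called higher, and 36.8% and 37.5% lower. Under IL-4, 6 of the 9 and 10 of the 17 rose in each genotype, against 22.7% of all genes in p110g-/- and 22.9% in WT cells. These counts are a description.

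Other genes of the pathway were counted from lists chosen with earlier results of these data known. Of 26 further ATF4 targets and partners, 16 rose and 7 fell in p110g-/- cells, and 16 rose and 5 fell in WT cells, so that 88.5% and 80.8% were called, against 73.0% and 73.8% of all genes. Slc7a11, the cystine transporter, averaged 24358 ± 1032 in p110g-/- IFNg/LPS against 2025 ± 575 in p110g-/- M-CSF, and 13407 ± 1830 in WT IFNg/LPS against 1430 ± 52.3 in WT M-CSF (SD, n = 3 each). Slc1a5, the glutamine transporter, averaged 407 ± 90.3 in p110g-/- IFNg/LPS against 1593 ± 186 in p110g-/- M-CSF, and 298 ± 38.2 in WT IFNg/LPS against 1407 ± 186 in WT M-CSF. Both calls held in both genotypes, with log2 changes of 3.62 in p110g-/- and 3.22 in WT cells for Slc7a11, and -1.98 and -2.24 for Slc1a5. Of 15 kinases and factors of eIF2 control, 8 rose and 3 fell in p110g-/- cells, and 6 rose and 5 fell in WT cells, a called share of 73.3% in each, near that of all genes. Eif2ak2, the interferon-induced kinase PKR, rose by 2.59 in p110g-/- and 2.43 in WT cells, while Eif2ak3, the kinase PERK of the endoplasmic reticulum, changed by -1.64 and -1.56. Of 20 mitochondrial synthetase and amidotransferase genes, 1 rose and 10 fell in p110g-/- cells, and 1 rose and 14 fell in WT cells, with medians of -0.24 and -0.47 and called shares of 55% and 75%. Of 6 synthetase partners, 1 rose and 4 fell in each genotype. Of 5 cytosolic one-carbon enzymes, 4 fell in p110g-/- and 5 in WT cells, and Mthfd1 changed by -1.82 in p110g-/- and -2.25 in WT cells. When the library labelled p110g-/- IFNg/LPS, number 1, was left out, in p110g-/- cells 15 of the 26 targets rose and 6 fell, 8 of the 15 eIF2 genes rose and 3 fell, 1 of the 20 mitochondrial genes rose and 10 fell, 1 of the 6 partners rose and 4 fell, and 4 of the 5 one-carbon enzymes fell. Slc7a11 was then at 3.59, Slc1a5 at -1.82, Eif2ak2 at 2.50, Eif2ak3 at -1.68 and Mthfd1 at -1.62.

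**Figure D3:**
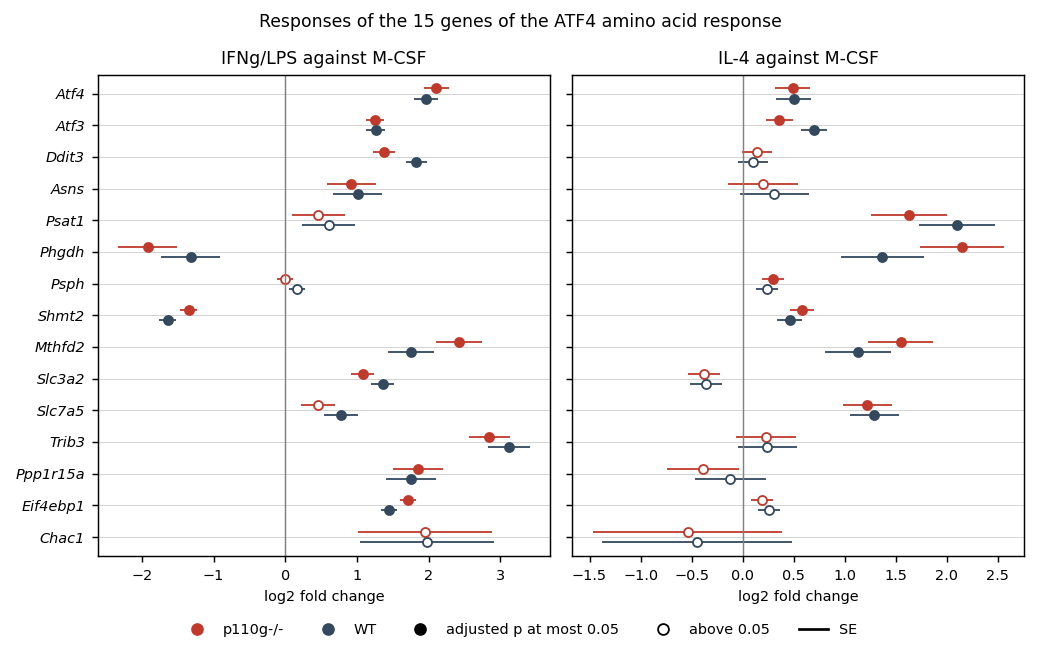
Log2 fold change and standard error of the 15 genes of the ATF4 amino acid response under IFNg/LPS (left) and IL-4 (right), each against M-CSF, in p110g-/- (red, upper point) and WT cells (dark, lower point), with filled points for a limma adjusted p of at most 0.05. Trib3 lies furthest right under IFNg/LPS, at 2.85 in p110g-/- and 3.12 in WT cells, and Psat1, Phgdh, Mthfd2 and Slc7a5 lie above 1 in both genotypes under IL-4.

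With IL-4 for 48 h, the members that were called all rose. In p110g-/- cells 22 members rose, against 22.7% of all genes called higher and 21.2% called lower, and in WT cells 22 rose, against 22.9% and 21.1%. The higher calls thus took 62.9% of the members in each genotype. A total of 21 members were called in both genotypes, and 1 more in each, Psph in p110g-/- and Farsb in WT cells. None fell by limma in either genotype, where 1 member, Slc3a2, was lower at an unadjusted p under 0.05 in each, and edgeR and DESeq2 called 0. The median log2 fold change of the members was 0.40 in p110g-/- cells and 0.46 in WT cells, against -0.01 and 0.00 over all genes. With the library number as a block, Vars was also called higher in both genotypes, Qars was called higher in p110g-/- cells, and Slc3a2 was called lower in both (log2 -0.38 in p110g-/- and -0.36 in WT cells, limma adjusted p = 0.031 and 0.041). Slc3a2 was also called lower in WT cells without M-CSF library 2 or IL-4 library 1 and, with Ppp1r15a, in p110g-/- cells without IL-4 library 1.

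Of the 20 synthetases, 14 rose in p110g-/- and 15 in WT cells, against 22.7% and 22.9% of all genes called higher. Their medians were 0.41 and 0.47. The largest rise was that of Rars, which had 7367, 5734 and 5724 in p110g-/- IL-4 against 2845, 2745 and 2853 in p110g-/- M-CSF, and 6999, 8291 and 7929 in WT IL-4 against 2984, 2993 and 2908 in WT M-CSF. All IL-4 libraries stood above all M-CSF libraries, and Rars rose by 1.15 ± 0.09 in p110g-/- and 1.38 ± 0.09 in WT cells (limma adjusted p = 1.5e-07 and 2.9e-08). Yars, for tyrosine, rose by 0.89 and 0.87. Wars rose by 0.57 and 0.44, Aars by 0.52 and 0.61, and Iars by 0.54 and 0.70. The other synthetases called in both genotypes were Eprs, Lars, Mars, Kars, Cars, Farsa, Gars, Hars and Tars, with changes of 0.31 (Lars) to 0.75 (Cars) in WT cells. Farsb rose by 0.44 in WT cells (limma adjusted p = 0.012) and had -0.01 in p110g-/- cells (limma adjusted p = 0.96). Nars, Dars, Qars, Sars and Vars were not called in either genotype. The Eprs call in p110g-/- cells was lost without M-CSF library 2 or 3 or IL-4 library 1 (limma adjusted p = 0.071, 0.071 and 0.13).

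Of the 15 genes of the ATF4 response, 8 rose in p110g-/- and 7 in WT cells, against 22.7% and 22.9% of all genes called higher. Psat1, the second enzyme of serine synthesis, had 2452, 2602 and 1687 in p110g-/- IL-4 against 551, 949 and 691 in p110g-/- M-CSF, and 2050.4, 4101 and 3969 in WT IL-4 against 469, 1351 and 670.1 in WT M-CSF. Phgdh had 400.3, 316 and 282 in p110g-/- IL-4 against 161, 51.4 and 47.5 in p110g-/- M-CSF, and 347, 387 and 355 in WT IL-4 against 181, 193 and 76.9 in WT M-CSF. The IL-4 and M-CSF groups of both genes did not overlap, though the M-CSF libraries were widely spread. Psat1 rose by 1.63 ± 0.37 in p110g-/- and 2.10 ± 0.37 in WT cells (limma adjusted p = 0.0022 and 0.00032), and Phgdh by 2.15 ± 0.41 and 1.37 ± 0.41 (limma adjusted p = 0.00056 and 0.013). Slc7a5 had 522, 394 and 389.8 in p110g-/- IL-4 against 259.8, 162 and 150.1 in p110g-/- M-CSF, and 456, 466 and 460.3 in WT IL-4 against 243, 202 and 135 in WT M-CSF. Mthfd2 had 1339, 934 and 827 in p110g-/- IL-4 against 513, 231 and 346 in p110g-/- M-CSF, and 1335, 1481 and 1352 in WT IL-4 against 873, 689 and 422 in WT M-CSF. Neither gene overlapped between IL-4 and M-CSF in either genotype. Slc7a5 rose by 1.22 ± 0.24 in p110g-/- and 1.29 ± 0.24 in WT cells, and Mthfd2 by 1.55 ± 0.32 and 1.13 ± 0.32, with limma adjusted p-values of 0.00064 and 0.00044, and 0.0011 and 0.0095. Without WT M-CSF library 3, the Phgdh and Mthfd2 calls in WT cells were lost (limma adjusted p = 0.078 and 0.058).

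Shmt2, which fell under IFNg/LPS, rose under IL-4 by 0.58 in p110g-/- and 0.46 in WT cells. Atf4 rose by 0.49 and 0.50 (limma adjusted p = 0.03 and 0.027), with overlapping groups in p110g-/- cells, and Atf3 by 0.36 and 0.70 (limma adjusted p = 0.031 and 0.00043). The Atf4 calls were lost without IL-4 library 1 in p110g-/- (limma adjusted p = 0.15) and in WT cells (0.11), and likewise without M-CSF library 2 or 3 of either genotype. The Atf3 call in p110g-/- cells was lost without any of 4 libraries, IL-4 library 1 among them (limma adjusted p = 0.17), the others being the 3 M-CSF libraries (0.065 to 0.073). With libraries centred on their medians, Atf4 lost its call in both genotypes and Atf3 lost its call in p110g-/- cells. With only the compared groups in the fit, both genes lost their calls in p110g-/- cells. Psph in p110g-/- cells (log2 0.30, limma adjusted p = 0.04) was lost under 9 of 16 alternatives, among them without M-CSF library 1 or any IL-4 library. Trib3, Ppp1r15a, Eif4ebp1, Ddit3, Asns and Chac1 were not called in either genotype. Trib3 had 0.23 in p110g-/- and 0.24 in WT cells, and Ppp1r15a -0.39 and -0.12.

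Among the other pathway genes under IL-4, 8 of the 26 further ATF4 targets rose and 1 fell in p110g-/- cells, and 9 rose and 1 fell in WT cells. All counts of this paragraph are read against the 22.7% and 21.2% of all genes called higher and lower in p110g-/- cells, and 22.9% and 21.1% in WT cells. Slc1a5 averaged 3366 ± 695 in p110g-/- IL-4 against 1593 ± 186 in p110g-/- M-CSF. Its WT means were 4064 ± 161 in IL-4 against 1407 ± 186 in M-CSF (SD, n = 3 each). Its log2 change was 1.07 in p110g-/- and 1.54 in WT cells. Of the 15 genes of eIF2 control, 7 rose and 1 fell in p110g-/- cells and 7 rose in WT cells, with Eif2b2, a subunit of the eIF2 exchange factor, at 0.70 and 0.74. Of the 20 mitochondrial synthetase genes, 9 rose in p110g-/- cells, and 4 rose and 1 fell in WT cells. Of the 6 partners, 2 rose in p110g-/- and 3 in WT cells, and the scaffold gene Aimp2 changed by 0.55 and 0.68. Of the 5 cytosolic one-carbon enzymes, 3 rose and 1 fell in p110g-/- cells and 4 rose in WT cells, with the purine enzyme Atic at 1.17 and 1.34.

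Between genotypes most members were not called, and Lars was the member called under every stimulus. The median log2 difference of the 35 members was -0.03 in IFNg/LPS, -0.15 in IL-4 and -0.07 in M-CSF, against 0.00 over all genes, and -0.02 in IFNg/LPS without the library labelled p110g-/- IFNg/LPS, number 1. Lars had 2218, 2352 and 2477 in p110g-/- IFNg/LPS against 1900.0, 1999 and 2099 in WT IFNg/LPS. It had 3655, 3530.1 and 3397 in p110g-/- IL-4 against 2835, 2875 and 2869 in WT IL-4. In M-CSF it had 2712, 2809.7 and 2744 in p110g-/- libraries against 2273, 2322 and 2334 in WT libraries. The p110g-/- libraries stood above the WT libraries under each stimulus, without overlap. The log2 differences were 0.23 ± 0.05 in IFNg/LPS, 0.30 ± 0.05 in IL-4 and 0.25 ± 0.05 in M-CSF (limma adjusted p = 0.0078, 0.0037 and 0.014). Without the library labelled p110g-/- IFNg/LPS, number 1, the difference in IFNg/LPS was 0.27 (limma adjusted p = 0.0043). With only the compared groups in the fit, the limma adjusted p in IFNg/LPS was 0.14. The call in M-CSF was lost without p110g-/- library 2 (limma adjusted p = 0.076), WT library 1 (0.061) or WT library 2 (0.051).

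In M-CSF, Lars was the single member called, against 1.06% of all genes called higher and 1.27% called lower. None was lower by limma, edgeR or DESeq2, and 4 members, Phgdh, Mthfd2, Ddit3 and Dars, were lower at an unadjusted p under 0.05. Phgdh was called lower when p110g-/- library 1 was left out (log2 -1.48, limma adjusted p = 0.041).

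In IFNg/LPS, 4 members were higher and 3 lower in p110g-/- cells, against 6.94% and 7.79% of all genes, or 14.7% in either direction. All 4 higher members were synthetases, namely Farsa, Vars, Dars and Lars, and the 3 lower ones were Phgdh, Ddit3 and Aars. Farsa had 2367, 3121 and 2629 in p110g-/- IFNg/LPS against 1646, 1801 and 1954 in WT IFNg/LPS, and Dars had 2740.1, 2158 and 2427 against 1992, 1969 and 2009 in WT. The p110g-/- libraries were higher without overlap in both genes, by 0.58 ± 0.10 for Farsa (limma adjusted p = 0.0014) and 0.29 ± 0.07 for Dars (limma adjusted p = 0.017). Vars, with 505, 796 and 634 in p110g-/- IFNg/LPS against 328, 473 and 537 in WT IFNg/LPS, overlapped between genotypes (log2 0.54 ± 0.17, limma adjusted p = 0.045).

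Phgdh had 20.9, 15.2 and 20.5 in p110g-/- IFNg/LPS against 38.4, 69.1 and 63.2 in WT IFNg/LPS, Ddit3 had 2759, 2831 and 3303 against 4194, 5247 and 5933 in WT, and Aars had 7748, 8188 and 8897 against 9266, 11787 and 12881 in WT. Each p110g-/- library of these 3 genes was lower than each WT library. The log2 differences were -1.51 ± 0.41 for Phgdh, -0.78 ± 0.15 for Ddit3 and -0.44 ± 0.12 for Aars (limma adjusted p = 0.021, 0.0023 and 0.025). Farsa and Ddit3 kept their calls under all 16 alternatives.

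Without the library labelled p110g-/- IFNg/LPS, number 1, 4 members were higher (Farsa, Vars, Lars and Iars) and 2 lower (Phgdh and Ddit3), against 7.98% and 7.94% of all genes. The calls of Dars and Aars were lost (log2 0.20 and -0.39, limma adjusted p = 0.061 and 0.068), and Iars was called (log2 0.42, limma adjusted p = 0.019). Farsa was then at 0.67, Vars at 0.70, Phgdh at -1.59 and Ddit3 at -0.73. Iars was also called higher with the library number as a block (limma adjusted p = 0.04). The lower calls numbered 1 without p110g-/- library 2, WT library 2 or WT library 3, each of which ended the calls of Phgdh and Aars, and 7 without WT library 1. The higher calls numbered 2 without WT library 2, which ended those of Dars and Vars. Vars was also lost without p110g-/- library 2 or 3 or WT library 1 (limma adjusted p = 0.092 to 0.21). With only the compared groups in the fit, Farsa, Ddit3 and Phgdh kept their calls and 1 member was higher. With libraries centred on their medians, 4 members were higher and 6 lower, against 6.06% and 9.66% of all genes. With libraries numbered 2 and 3 alone, 4 were higher and 10 lower, against 12.5% and 14.1% of all genes. The 7 handling stress genes summed to 26467 to 37297 in p110g-/- IFNg/LPS against 47370 to 53032 in WT IFNg/LPS, and their part in these differences was not tested.

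In IL-4, Lars was the single member called, against 1.34% of all genes called higher and 1.99% called lower. None was lower by limma or edgeR, DESeq2 called 2, and 4 members (Asns, Farsb, Rars and Eif4ebp1) were lower at an unadjusted p under 0.05. Farsb had 2449, 2108 and 2097 in p110g-/- IL-4 against 2733, 3118 and 3206 in WT IL-4, and Rars had 7367, 5734 and 5724 against 6999, 8291 and 7929 in WT. The Farsb groups did not overlap, while p110g-/- library 1 of Rars lay within the WT range. Their log2 differences were -0.45 ± 0.13 and -0.31 ± 0.09 (limma adjusted p = 0.077 and 0.092). Rars was called lower without p110g-/- library 1 (-0.43, limma adjusted p = 0.0056) or WT library 1 (-0.38, limma adjusted p = 0.046). With libraries numbered 2 and 3 alone, 12 members were lower in p110g-/- IL-4 and Lars was higher, against 8.36% of all genes called lower and 6.26% called higher. The 12 were 8 synthetases (Eprs, Iars, Rars, Aars, Cars, Farsb, Sars and Yars) with Atf4, Atf3, Asns and Eif4ebp1. Farsb then had -0.59 (limma adjusted p = 7e-05), Rars -0.50 (limma adjusted p = 0.00013) and Asns -1.08 (limma adjusted p = 0.024). In these pairs of libraries each group holds 2, and the spread is shared over the 6 groups. The neutrophil sum of the libraries numbered 1 was 9243 in p110g-/- IL-4 against 5356 and 5434 in libraries 2 and 3, and 21727 in WT IL-4 against 4685 and 4625, and its part was not tested.

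**Figure D4:**
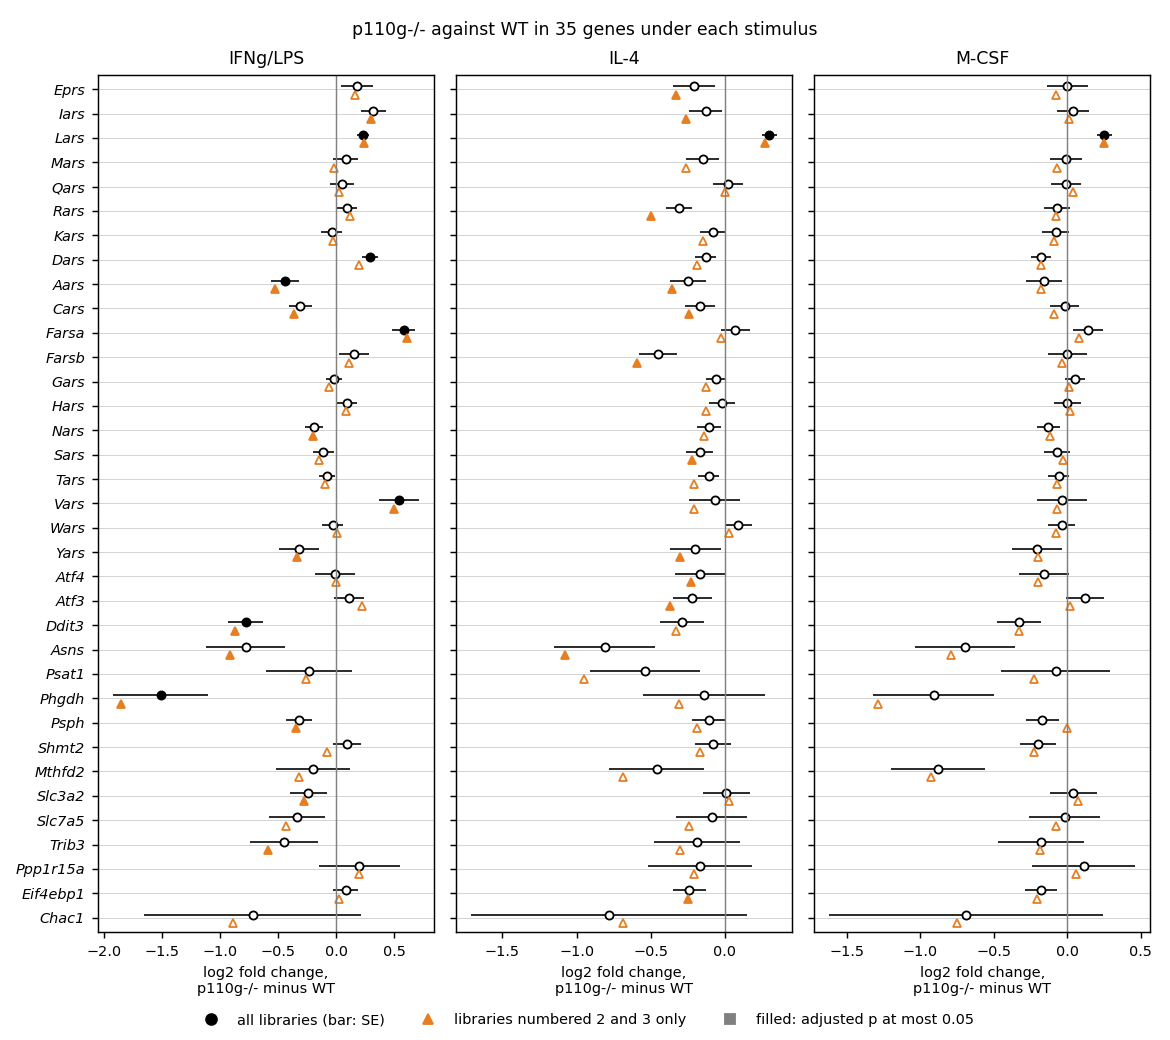
Log2 difference, p110g-/- minus WT, of the 35 genes under IFNg/LPS, IL-4 and M-CSF, with all libraries (black circles, bars are standard errors) and with libraries numbered 2 and 3 alone (orange triangles), filled where the limma adjusted p is at most 0.05. Lars is filled on the right of 0 in all 3 panels, and 12 orange triangles are filled on the left of 0 in IL-4, where no black circle is.

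The stimulus responses of the 2 genotypes were compared directly, as the genotype difference under a stimulus minus that in M-CSF. For IFNg/LPS, 1 member was called higher, against 1.02% of all genes called higher and 1.42% called lower. This was Dars, whose genotype difference was 0.29 in IFNg/LPS and -0.18 in M-CSF, a change of 0.47 ± 0.11 (limma adjusted p = 0.03). Dars had 3176, 2970.3 and 3316 in p110g-/- M-CSF against 3613, 3497 and 3603 in WT M-CSF, without overlap, the reverse of its order in IFNg/LPS. The call was lost under 9 of 22 alternatives, among them without any one of p110g-/- M-CSF library 1 or 2, the 3 WT M-CSF libraries and WT IFNg/LPS library 2 or 3 (limma adjusted p = 0.053 to 0.083). Without the library labelled p110g-/- IFNg/LPS, number 1, Dars and Farsa were called, with Farsa at 0.53 (limma adjusted p = 0.048), against 1.51% of all genes called higher. With libraries numbered 2 and 3 alone, Dars, Farsa and Vars were called higher, against 4.83% of all genes. None was lower by limma, edgeR or DESeq2, and 1 member (Ddit3) was lower at an unadjusted p under 0.05. For IL-4, limma called 0 members and 0.0% of all genes, edgeR called 0 members and 0 genes, and DESeq2 called 0 members and 77 genes. At an unadjusted p under 0.05, 0 members were higher and 1, Farsb, was lower, among 571 and 585 genes. With libraries numbered 2 and 3 alone, Rars (-0.43, limma adjusted p = 0.017) and Farsb (-0.55, limma adjusted p = 0.0068) were lower, against 1.63% of all genes.

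Among the other pathway genes, Gpt2, which makes alanine, and Gdf15, a secreted stress factor, were lower in p110g-/- cells under each stimulus. Gpt2 averaged 128 ± 29.5 in p110g-/- IFNg/LPS against 412 ± 106 in WT IFNg/LPS, 531 ± 1.31 in p110g-/- IL-4 against 1703 ± 164 in WT IL-4, and 438 ± 46.2 in p110g-/- M-CSF against 723 ± 60.3 in WT M-CSF (SD, n = 3 each). Gdf15 averaged 104 ± 30.1 in p110g-/- IFNg/LPS against 1140.0 ± 312 in WT IFNg/LPS. The log2 differences of Gpt2 were -1.67 in IFNg/LPS, -1.68 in IL-4 and -0.72 in M-CSF (limma adjusted p = 1.7e-05, 2.4e-05 and 0.038), and those of Gdf15 were -3.44, -2.58 and -2.84 (limma adjusted p = 0.00042, 0.0094 and 0.0053). In IFNg/LPS, 3 of the 26 further targets were higher and 5 lower, against 6.94% and 7.79% of all genes, and Slc7a11 was higher by 0.87 (limma adjusted p = 0.0043). Of the 20 mitochondrial synthetase genes, 5 were higher and 0 lower there, and Sars2 and Tars2 were higher by 0.51 and 0.37 (limma adjusted p = 0.0067 and 0.0083). With the library labelled p110g-/- IFNg/LPS, number 1, left out, 3 of the 26 targets were higher and 5 lower, and 7 of the 20 mitochondrial genes were higher and 0 lower, against 7.98% and 7.94% of all genes. The differences in IFNg/LPS were then -1.51 for Gpt2, -3.33 for Gdf15, 0.84 for Slc7a11, 0.58 for Sars2 and 0.45 for Tars2 (limma adjusted p = 7.2e-05, 0.0018, 0.012, 0.006 and 0.0022). Of the 5 cytosolic one-carbon enzymes, 0 were higher in p110g-/- IFNg/LPS with all libraries and 3 without this library. Of the 15 genes of eIF2 control, 1 was higher with it and 2 without it, and of the 6 partners 0 and 1. In these lists 0 genes were lower either way.

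Library number 1 stood apart in a few members. Ppp1r15a was highest in library 1 in all 6 groups, with 2455, 929 and 973 in p110g-/- IL-4, 2608, 1108 and 1099.8 in WT IL-4, 2237, 1469 and 1534 in p110g-/- M-CSF and 1944, 1336 and 1558 in WT M-CSF. Atf4 and Trib3 were highest in library 1 in 5 groups, and Qars and Kars were lowest in library 1 in all 6. The share of members highest in library 1 in all groups was 2.86%, the same as the 2.86% of all genes, and the share lowest was 5.71% against 3.49%. Under IL-4, Ppp1r15a and Slc3a2 were called lower than in M-CSF with libraries 2 and 3 alone, against 23.0% of all genes in p110g-/- and 23.3% in WT cells. Ppp1r15a was then at -0.66 in p110g-/- (limma adjusted p = 1.6e-05) and -0.39 in WT cells (limma adjusted p = 0.0011), while all libraries gave -0.39 and -0.12 without a call.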

How the data were processed

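RNA sequencing of 18 libraries was read from 1 table of the whole series. The unit of the deposited table is signal, read counts per gene scaled by a single factor for each library. This was read from the values themselves: in every library, 100% of low values were whole multiples of the same step within 0.1. CASAVA 1.8.2, Bowtie2, DESeq and build mm9 are named in the submitters' processing notes; the counter, strand setting and treatment of reads shared by gene copies are not given in the sources used here, so members with near-identical copies or overlapping genes are uncertain in that respect.

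The 35 members, the gene lists and the tests were chosen with earlier results of these data known. Signal was analysed as log2(signal + 1), which understates changes of low genes, in limma 3.58.1 (R 4.3.3) as 6 group means over 18 libraries, leaving 12 residual degrees of freedom, with moderation by trend and robust settings. Testing took in the 15627 genes that reached a signal of 10 in 3 or more libraries, with Benjamini-Hochberg adjustment within a comparison at 0.05. The fit was tested on simulated data. Alternatives were a pseudocount of 10, no filter, edgeR 4.0.16 and DESeq2 1.42.0 on recovered reads, no trend or robust setting, the library number as a block, compared groups only, libraries 2 and 3 only, other scalings, and leaving out each library. Members described with every library were, per comparison, up to 4 with the largest and 4 with the lowest change among called members whose groups did not overlap; Vars between genotypes in IFNg/LPS, Rars and Farsb between genotypes in IL-4, Dars in M-CSF, Chac1 and Ppp1r15a were added after their values were seen. Other pathway genes were named by the smallest p among called genes, up to 2 per list and direction.

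The labels do not say what a library number marks. Deviations from the group means of same-numbered libraries correlated above 0.1 in every pair for p110g-/- against WT in IFNg/LPS (0.546, 0.34 and 0.256) and IFNg/LPS in WT (0.256, 0.191 and 0.162). They also did for IL-4 in p110g-/- (0.397, 0.248 and 0.187) and WT cells (0.458, 0.347 and 0.179). These comparisons are called paired here, but the main fit has no term for pairs. Its calls and p-values leave the pairing out, and only the alternative with the library number as a block takes it in. Sequences are RefSeq promoters of GRCm38.p6, used for their letters only, matched by gene ID; coordinates were not converted to mm9.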

Additional observations from a re-analysis of the deposited data

Results flagged for a closer look

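The genotype difference of Dars, the aspartate synthetase gene, was larger in IFNg/LPS than in M-CSF by 0.47 on the log2 scale (limma adjusted p = 0.03), which is a difference between groups under the same contrast. Dars was higher in p110g-/- than in WT libraries in IFNg/LPS and lower in M-CSF, without overlap in either. Number 1 of the p110g-/- IFNg/LPS libraries, which went against its label by Pik3cg, had the highest Dars signal of its group (2740.1 against 2158 and 2427). Without that library the difference in IFNg/LPS lost its call, while the change from M-CSF was still called. The call of this change was lost under 9 of 22 alternatives. Outliers within groups of 3 libraries were not tested.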

How the results depend on the processing

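Of 315 results (35 members in 9 comparisons), 106 were called, and 86 of these kept their call and direction under every alternative. A total of 20 were lost under at least 1, 45 uncalled results were called under at least 1, and 1 result reversed: Eprs in p110g-/- IFNg/LPS against M-CSF was called at 0.16 with libraries 2 and 3 only, against -0.02 and no call with all; the cause was not tested. With libraries 2 and 3 only, members lower in p110g-/- numbered 10 in IFNg/LPS and 12 in IL-4, members lower under IL-4 numbered 2 in each genotype, and the genotype difference changed by stimulus in 3 members (higher, IFNg/LPS) and 2 (lower, IL-4). For p110g-/- against WT in IFNg/LPS, compared groups only gave 1 higher, and DESeq2 and median centring gave 5 and 6 lower. In IL-4 that contrast gave 2 lower with DESeq2 and 1 with compared groups only. With median centring 1 member was lower under IL-4 in p110g-/- cells. The Dars call was lost with compared groups only and with no trend or robust setting, which gave 0. The replicate block moved 10 of 315 results, all to a call, and 305 kept their side; it gave 1 lower member under IL-4 in each genotype and, where numbers do not pair, 1 lower in p110g-/- IL-4 (Farsb, limma adjusted p = 0.041) and 1 more higher in p110g-/- IFNg/LPS (Chac1, limma adjusted p = 0.04). Block results beyond those printed in the report changed no other paired call.

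In every library, at least 99.98% of values lay within a signal of 0.1 of the value that the recovered whole reads give. Over all genes, for p110g-/- against WT in IFNg/LPS, edgeR called 2192 and DESeq2 2751, against 2303 by limma, and for IFNg/LPS in WT cells 11483 and 11442, against 11538. Leaving out 1 library gave 0 to 1 higher and 0 to 1 lower for p110g-/- against WT in M-CSF, 2 to 5 higher and 1 to 7 lower in IFNg/LPS, and 0 to 1 lower in IL-4. It gave 0 to 1 lower under IL-4 in WT and 0 to 2 in p110g-/- cells, and 0 to 2 members whose genotype difference was higher in IFNg/LPS than in M-CSF. Depth limits Chac1, whose lowest M-CSF values lie near the signal a count of 0 allows.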
